A study of Mus musculus with 25 samples.

Results

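Livers of mice lacking Rb in hepatocytes were compared with wild-type livers after exposure to diethylnitrosamine (DEN), a carcinogen whose metabolism in hepatocytes yields a DNA-alkylating species. The comparison comprised 9 of the 25 arrays of the study, chosen by their titles: 4 from Rb knockout and 5 from wild-type animals. Animals of both groups were of mixed FVB;129 background, were injected with 20 mg/kg DEN at 14 days of age and were sampled 24 h later. The Rb knockout carried loxP sites in Rb1 and Cre recombinase under the albumin promoter, so that deletion was directed to hepatocytes and other liver cells kept the gene. The labels do not say whether wild-type animals carried Cre, and they give no sex. Both groups had intact p53. The other 16 arrays came from untreated wild-type liver (3), untreated liver lacking both Rb and p53 (3), and DEN-treated livers lacking p53 (5) or both proteins (5), here called the p53 knockout and the double knockout. The DEN-treated livers among these had the same dose, age and sampling time, and the untreated ones the same age at a dose of 0. The labels do not say that each array was a separate animal, so the spread behind the p-values may in part be technical.

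The retinoblastoma protein binds E2F transcription factors and holds genes needed for S phase at a low level until cyclin-dependent kinases phosphorylate it. Its relatives p107 (Rbl1) and p130 (Rbl2) act on overlapping genes, partly by recruiting repressive E2F complexes. Hepatocytes of young mice are still dividing, and damage by DEN engages the p53 checkpoint, which also restrains these genes.

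By their names the arrays fall into 3 sets. Set 1 held 3 wild-type and 3 Rb knockout arrays, and set 2 held 2 wild-type arrays (replicates 4 and 5) and 1 Rb knockout array (replicate 4). The set 2 arrays of both genotypes correlated with those of set 1 at Pearson's r of 0.940 to 0.954, against 0.980 to 0.988 among the 6 arrays of set 1. The fit therefore carried a term for the set, and values within each set are given beside it. Albumin, the hepatocyte marker, was at 12.68 to 12.77 (log2) in the wild-type and 12.62 to 12.88 in the Rb knockout arrays. Xist, the RNA of the inactive X chromosome, was high in Rb knockout replicates 2 and 3 (9.97 and 9.95) and low in the other 7 arrays (3.04 to 3.92). The Y-linked Eif2s3y mirrored this, at 2.46 and 2.62 in those replicates and at 6.49 to 7.64 in the others, so the sexes of the groups differed in part.

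The probe set of Rb1 itself did not separate the groups. It read 6.02, 5.90 and 5.82 in wild type and 5.55, 5.64 and 5.79 in the Rb knockout in set 1, and 5.97 and 5.04 against 6.28 in set 2. Within set 1 every knockout array lay below every wild-type array, whereas in set 2 the knockout array lay above both. The fitted difference was 0.08 on the log2 scale (SE 0.18, adjusted p = 0.830), -0.25 within set 1 (adjusted p = 0.276) and 0.78 within set 2. It fell below 0 without Rb knockout replicate 4 (-0.13) and without wild-type replicate 5 (-0.11). The annotation used here does not place this probe set relative to the deleted part of the gene, and cells other than hepatocytes keep Rb1, so this value does not check the deletion.

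Genes higher in the Rb knockout livers included 21 of 34 mitotic genes and 14 of 43 DNA replication genes. Genes lower there included 10 of 25 genes of gluconeogenesis, amino acid breakdown and the urea cycle, 11 of 34 respiratory chain genes and 7 of 36 genes of xenobiotic metabolism, so most members of each of these lists other than the mitotic one did not pass. Of 15951 genes tested, 1811 passed an adjusted p of 0.05, which is 11.4% of those tested. Of these, 834 were higher (5.23% of tested genes) and 977 were lower (6.13%). The median difference over all genes was -0.04. Centring each array on its median moved the split to 1218 higher and 638 lower, so that the lower share of the calls went from 53.9% to 34.4%.

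The number of genes depended on the set 2 arrays. Without Rb knockout replicate 4, 279 genes passed (71 higher, 208 lower), without wild-type replicate 4, 1084 passed, and without wild-type replicate 5, 975 passed. Within set 1 alone 532 genes passed (3.34%), 153 higher (0.959%) and 379 lower (2.38%), of which 126 and 323 were also among the genes called over all arrays. The median difference of the genes called higher was 0.34 within set 1 and 1.1 within set 2, and that of the genes called lower was -0.40 and -0.78. The contribution of sex was addressed with Xist as a covariate, which left 1431 genes, 716 higher and 715 lower. With it, 19 mitotic and 13 replication genes were higher. Lower were 7 genes of gluconeogenesis, amino acid breakdown and the urea cycle, 11 of the respiratory chain and 4 of xenobiotic metabolism.

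Of the 12 named genes with the largest rises, 8 have known roles in the cell division cycle. Hells, a chromatin remodeller needed for DNA methylation in dividing cells, read 6.41, 6.76 and 6.94 in wild type and 7.75, 7.66 and 7.78 in the Rb knockout in set 1. In set 2 it read 5.30 and 4.2 in wild type and 7.23 in the knockout. All 4 knockout arrays lay above all 5 wild-type arrays, and the 3 untreated wild-type arrays were at 5.64. The difference was 1.53 (SE 0.25, adjusted p = 0.00133), and 1.03 within set 1 (adjusted p = 0.00630). By the looser rule of knockout arrays above wild-type arrays within each set separately, 6.02% of all genes were higher.

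The other 7 were Shcbp1 and Kif20b, which act in cytokinesis, Ncapg, a condensin subunit, Knl1 and Cenpe of the kinetochore, Bub1, a spindle checkpoint kinase, and Depdc1a, linked to mitotic progression. Their differences ranged from 1.37 for Depdc1a to 1.53 for Shcbp1. Within set 1 they were smaller, from 0.61 for Bub1 to 0.87 for Shcbp1, and each passed in set 1 as well. Shcbp1 read 6.42, 6.39 and 6.45 in wild type against 7.12, 7.32 and 7.43 in set 1, and 5.10 and 4.64 against 7.68 in set 2. The set 2 wild-type arrays were below every set 1 wild-type array, and the set 2 knockout array was the highest. Ncapg, Cenpe and Bub1 did not pass without Rb knockout replicate 4 (adjusted p = 0.0559, 0.0655 and 0.111).

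The other 4 largest rises had less even arrays. Akr1c18, a hydroxysteroid dehydrogenase that inactivates progesterone, differed by 1.61 (SE 0.45, adjusted p = 0.0210), but wild-type replicate 1 (6.70) lay above Rb knockout replicates 1 and 3 (6.27 and 6.60). Rsph4a, a radial spoke protein of motile cilia, differed by 1.59 (adjusted p = 0.00655), with wild-type replicate 1 (7.02) above Rb knockout replicates 1 and 3 (6.45 and 7.00). Akr1c18 did not pass within set 1 (adjusted p = 0.305), with Xist as a covariate (0.0625) or without replicate 4 of the knockout (0.199). Rsph4a likewise did not pass within set 1 (0.159) or without that replicate (0.112).

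Sult3a1, a sulfotransferase with a female bias in mouse liver, was 5.27 and 5.28 in the 2 knockout arrays with high Xist. It was 3.98 and 3.11 in the other knockout arrays and 2.40 to 3.21 in wild type. The difference was 1.54 (SE 0.38, adjusted p = 0.0107), and without the 2 high-Xist arrays it was 0.84 (adjusted p = 0.252). Mpp7, a scaffold protein of cell junctions, was 6.16 to 6.51 in wild type and 6.84 to 7.03 in the knockout in set 1. In set 2 Mpp7 was 4.01 and 5.10 against 7.77, and its difference of 1.43 (adjusted p = 0.00365) was 0.86 without Rb knockout replicate 4 (adjusted p = 0.0838).

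**Figure D1:**
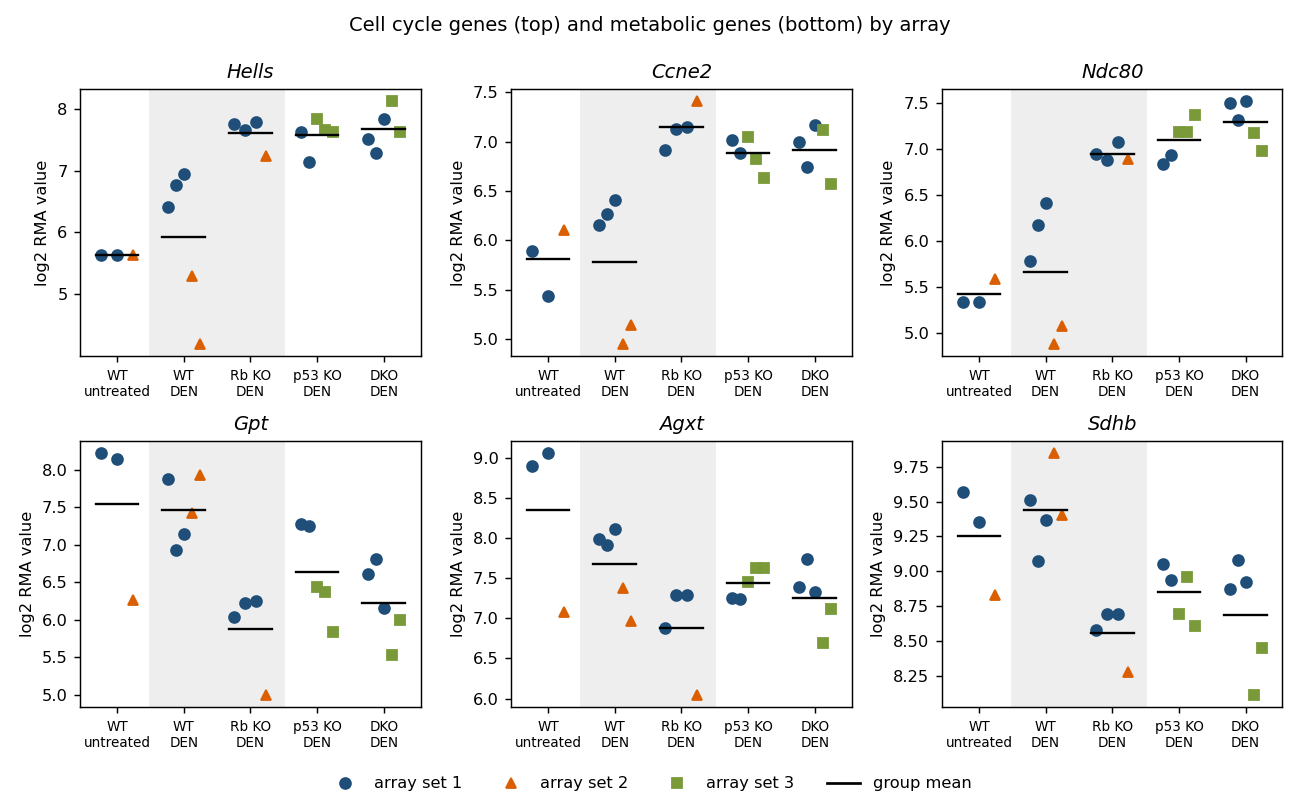
Log2 RMA values of 3 cell cycle genes (Hells, Ccne2, Ndc80) and 3 metabolic genes (Gpt, Agxt, Sdhb) in each array of 5 groups, with the compared groups shaded, the array sets by colour and shape, and group means as lines; DKO is the double knockout. In the 3 upper panels the 4 Rb knockout arrays lie above all 5 wild-type arrays after DEN, and for Gpt and Sdhb they lie below all 5.

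Of the 12 named genes with the largest falls, 4 serve amino acid metabolism or transport. Gpt, alanine aminotransferase, read 7.88, 6.93 and 7.15 in wild type and 6.03, 6.22 and 6.25 in the Rb knockout in set 1, and 7.42 and 7.93 against 4.99 in set 2. No knockout array reached a wild-type array. The difference was -1.69 (SE 0.27, adjusted p = 0.00131), and -1.15 within set 1 (adjusted p = 0.00756).

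Gnmt, glycine N-methyltransferase, was 9.13 to 10.75 in wild type and 8.42 to 8.68 in the knockout, a difference of -1.44 (adjusted p = 0.00131). Asl, argininosuccinate lyase of the urea cycle, was 8.94 to 9.81 against 7.60 to 8.40 (-1.21, adjusted p = 0.00274). Slc38a3, a glutamine transporter, was 9.11 to 9.44 against 7.56 to 8.51 (-1.10, adjusted p = 0.00131). None of these 3 genes overlapped between the groups, and each passed within set 1 and without Rb knockout replicate 4. They were chosen by the size of their fall. Over all genes, 1463 of 15951 had every knockout array below the wild-type arrays within each set taken separately. That rule is looser than no overlap over both sets together, for which the share of all genes was not counted. The remaining enzymes were Gstp3, a glutathione S-transferase, at 9.89 to 10.89 against 7.85 to 9.32 (-1.63), and Rdh16f2, a retinol dehydrogenase family member (-1.33), which also passed within set 1 (adjusted p = 0.0101 and 0.00696).

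Of the other 6 largest falls, Ftl1, the ferritin light chain, and Vamp8, a vesicle fusion protein, were lowest in Rb knockout replicate 4. Vamp8 was 10.35 to 10.50 in wild type and 9.79 to 9.87 in the knockout in set 1, and 9.55 and 9.58 against 7.42 in set 2. The other 4 rested on the set 2 arrays. Snora44, Snord33 and Rmrp, all small non-coding RNAs of the nucleolus or RNA processing, and Igfbp4, which binds insulin-like growth factors, did not pass within set 1 (adjusted p = 0.174, 0.257, 0.258 and 0.108).

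Snord33 shows that pattern most plainly. It was 3.96 to 4.71 in wild type and 3.62 to 4.10 in the knockout in set 1, and 9.42 and 9.04 against 6.03 in set 2. Its levels in set 2 were thus above set 1 in both genotypes. Its difference of -1.32 came with a difference of -3.20 within set 2 and -0.43 within set 1.

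The pocket proteins and E2F factors, the partners of Rb itself, had 4 members higher and 1 lower of 13 tested, against 5.23% of all genes higher and 6.13% lower, with a median of 0.25 (0.17 within set 1). Without Rb knockout replicate 4, Rbl1 was the 1 member that passed. Rbl1, which encodes p107 and is itself an E2F target, read 5.44, 5.66 and 5.82 in wild type and 6.31, 6.39 and 6.33 in the Rb knockout in set 1, and 4.98 and 4.54 against 6.50 in set 2. The 4 knockout arrays were above all wild-type arrays. Rbl1 differed by 1.05 (SE 0.20, adjusted p = 0.00253), and by 0.70 within set 1 (adjusted p = 0.0103).

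E2f8, an atypical repressor E2F, differed by 0.78, and Tfdp2 and Tfdp1, the dimerization partners of E2F proteins, by 0.65 and 0.47. None of these 3 passed within set 1, where the differences were 0.52, 0.18 and 0.13. E2f4, the main repressive E2F of resting cells, was lower by -0.35 (adjusted p = 0.0458), and by -0.21 within set 1 without passing there.

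Among 17 cyclins, cyclin-dependent kinases and their inhibitors, 3 were higher and none was lower, with a median of 0.16, and without Rb knockout replicate 4 only 1 passed. Ccne2, cyclin E2, which drives entry into S phase, read 6.15, 6.27 and 6.41 in wild type and 6.92, 7.13 and 7.15 in the knockout in set 1, and 4.95 and 5.14 against 7.41 in set 2. The groups did not overlap, and Ccne2 differed by 1.32 (SE 0.22, adjusted p = 0.00136), with 0.79 within set 1. Ccna2, cyclin A2 of S phase and G2, differed by 1.17 (0.46 within set 1, adjusted p = 0.0858 there). Cdkn2c, the inhibitor p18, differed by 0.70, with Rb knockout replicate 4 (5.02) below wild-type replicates 1, 2 and 3 (5.15 to 5.66).

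Of 43 genes of DNA replication known to be bound by E2F, 14 were higher and none was lower, against 5.23% of all genes higher. The list median was 0.34, against -0.04 over all genes, and 38 of 43 differences were above 0. Within set 1, 7 passed, and without Rb knockout replicate 4, 6 passed, all higher. With Xist as a covariate 13 were higher.

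The members called covered the origin, the fork and nucleotide supply. Mcm4, a subunit of the replicative helicase, read 5.27, 5.53 and 5.71 in wild type and 6.41, 6.31 and 6.27 in the knockout in set 1, and 5.12 and 4.88 against 6.00 in set 2. It differed by 0.88 (SE 0.13, adjusted p = 0.00131), and by 0.83 and 1.0 within the sets, so that its size was alike in both. Mcm6 of the same helicase differed by 1.0 and Gins1, its cofactor, by 0.61, while Gmnn, the licensing inhibitor geminin, differed by 0.55.

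Among polymerase genes, Pola1, the catalytic subunit of DNA polymerase alpha, read 5.61, 6.07 and 6.04 against 6.52, 6.59 and 6.64 in set 1, and 5.46 and 5.67 against 7.17 in set 2. All knockout arrays were higher, and the difference was 0.98 (SE 0.15, adjusted p = 0.00131). Prim1, its primase, differed by 1.21, Pole2 of polymerase epsilon by 0.90 and Rfc4 of the clamp loader by 0.90. Ribonucleotide reductase genes Rrm1 and Rrm2 differed by 0.84 and 0.61, and Tyms, thymidylate synthase, by 0.53. Dnmt1, which maintains DNA methylation behind the fork, differed by 0.63.

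E2F proteins bind short GC-rich sites near the starts of their targets. Windows of RefSeq (GRCm38.p6) running from 250 bases before to 50 after each annotated start were searched on both strands for TTTCCCGC, TTTCGCGC, TTTGCCGC and TTTGGCGC. Of 32851 such windows, 744 (2.26%) held at least 1 of these strings. Among tested genes with a window, 10.2% of those called higher (69 of 675) held 1, against 3.15% of those called lower (25 of 794) and 4.04% of all (508 of 12588). For genes called higher within set 1 alone the share was 16.2% (19 of 117). In the replication list 17 of 37 genes with a window held a string, and in the mitotic list 1 of 30 did.

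Stretches before the start of 6 genes that passed in this comparison and hold a string are shown 5′ to 3′ on the strand of the gene, with the string in capitals, so that its place can be read beside the expression values. For the first 3 genes, 150 bases before the start are given, and for the others 30 bases around the string. They lie at chr2:157204535-157204684 (minus strand) for Rbl1, chr1:128359706-128359855 (minus) for Mcm6, chr10:69352913-69353062 (minus) for Cdk1, chr19:38930917-38930946 (plus) for Hells, chrX:93632275-93632304 (minus) for Pola1 and chr5:150522442-150522471 (plus) for Brca2.
Rbl1: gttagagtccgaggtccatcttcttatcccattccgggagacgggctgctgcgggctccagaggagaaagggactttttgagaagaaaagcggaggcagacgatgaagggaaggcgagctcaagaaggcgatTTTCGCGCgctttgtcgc
Mcm6: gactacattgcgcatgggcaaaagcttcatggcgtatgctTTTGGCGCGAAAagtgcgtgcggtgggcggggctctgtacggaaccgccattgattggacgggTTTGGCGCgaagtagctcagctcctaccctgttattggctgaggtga
Cdk1: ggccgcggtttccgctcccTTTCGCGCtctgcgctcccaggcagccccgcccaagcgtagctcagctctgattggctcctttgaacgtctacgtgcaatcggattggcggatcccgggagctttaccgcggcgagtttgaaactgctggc
Hells: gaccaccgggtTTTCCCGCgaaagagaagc
Pola1: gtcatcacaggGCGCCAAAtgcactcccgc
Brca2: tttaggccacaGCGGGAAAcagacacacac
Mcm6 carried 3 strings, of which the distal pair overlapped on opposite strands, and the other 5 genes carried 1 each in this part of the window. Cdk1, the mitotic kinase, was the only called member of the mitotic list with a string, and it differed by 0.60. Ncapg, outside that list, held a string after its start. A match describes letters only and was not tested as a site.

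Of 34 mitotic genes tested, 21 were higher and none was lower, with a median of 0.90. The median was 0.37 within set 1 and 1.73 within set 2, and 7 members passed within set 1, all of them higher. Without Rb knockout replicate 4, Ndc80 and Tpx2 were the 2 members that passed. The knockout arrays lay above the wild-type arrays within both sets for 19 of the 34 genes, against 6.02% of all genes tested.

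Ndc80, an outer kinetochore protein that binds microtubules, read 5.78, 6.17 and 6.41 in wild type and 6.95, 6.88 and 7.08 in the knockout in set 1, and 4.88 and 5.07 against 6.89 in set 2. It differed by 1.21 (SE 0.20, adjusted p = 0.00131), and by 0.85 within set 1 (adjusted p = 0.0101). The knockout arrays thus differed little between the sets, while the wild-type arrays of set 2 lay below the untreated ones (5.34 to 5.58). Tpx2, a spindle assembly factor, differed by 1.04, Prc1, which bundles the central spindle, by 1.20 and Top2a, topoisomerase II alpha, by 1.35. Mki67, the proliferation marker Ki-67, differed by 1.04, and by 0.39 within set 1 without passing there.

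The mean over the mitotic list was also higher in every knockout array than in every wild-type array after DEN. It was 5.90, 5.98 and 6.04 in set 1 wild type and 6.36, 6.25 and 6.46 in set 1 knockout. In set 2 it was 4.84 and 4.85 in wild type and 6.33 in the knockout, and in untreated wild type it was 4.96, 5.32 and 5.34. The set 2 wild-type arrays after DEN lay below the untreated arrays on this mean, and the set 1 wild-type arrays lay above them. The part of the low wild-type arrays in the wider gap of set 2 was not tested.

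Of 9 replication-dependent histones above the dim cutoff (26 in the list), 2 were lower, against 6.13% of all genes, and none was higher. The differences of 4 of the 9 were above 0, and the median was -0.12. H4c6 differed by -0.66 and H4c4 by -0.57, and neither passed within set 1 or without Rb knockout replicate 4, which was the lowest array for both, at 3.83 and 6.90.

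Among 31 DNA repair and checkpoint genes, 7 were higher and none was lower, with a median of 0.29 (0.21 within set 1). Within set 1, 4 of the 31 passed, all higher, not all of them among the 7. Chek1, the checkpoint kinase activated by stalled forks, read 4.50, 5.40 and 5.47 in wild type and 6.15, 5.58 and 6.35 in the knockout in set 1, and 4.69 and 4.31 against 6.19 in set 2. The groups did not overlap, and Chek1 differed by 1.14 (SE 0.21, adjusted p = 0.00204). Its upstream kinase Atr differed by 0.72 and Brca2, which loads the recombinase at breaks, by 0.88. Fancb of the Fanconi core complex differed by 0.79, Atm by 0.77, the helicase gene Blm by 0.69 and Rad54b by 0.63. Of the 7, Atr, Brca2 and Rad54b passed within set 1, and Chek1 did not (0.90, adjusted p = 0.0573). Without Rb knockout replicate 4, Chek1 was the 1 of the 7 that passed.

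The p53 targets were not shifted in 1 direction, with 2 higher and 2 lower of 33 tested and a median of 0.12 (-0.02 within set 1). Ckap2, a spindle protein, rose by 0.76 and Polk, a translesion polymerase, by 0.54. Phlda3, an inhibitor of Akt, was lower by -0.52 and Dcxr, a carbonyl reductase, by -1.09. Dcxr read 8.45, 8.67 and 8.12 in wild type and 7.74, 7.57 and 7.83 in the knockout in set 1, and 7.78 and 8.22 against 6.13 in set 2. It passed within set 1 (adjusted p = 0.0123) and without Rb knockout replicate 4, which the other 3 did not.

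**Figure D2:**
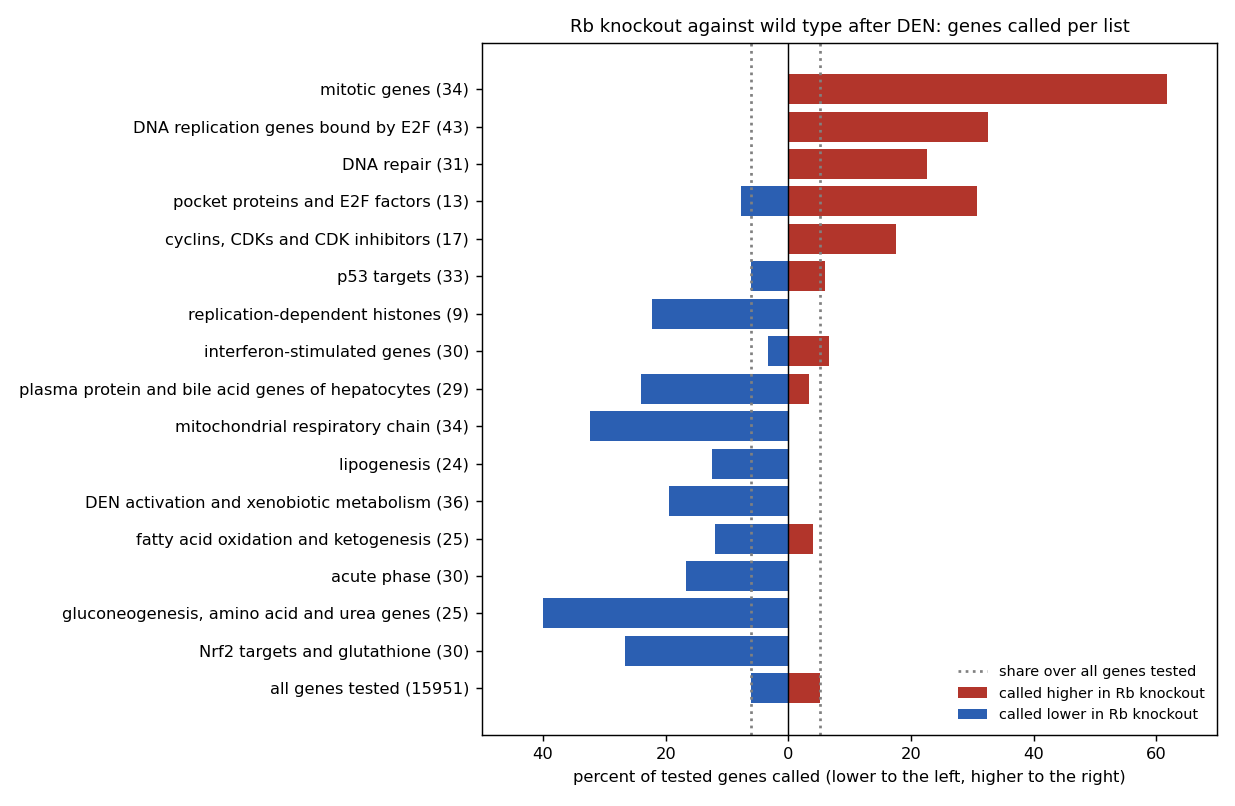
Percent of tested members of 16 gene lists and of all genes called higher (red, right) or lower (blue, left) in the Rb knockout, with list sizes in brackets and dotted lines at the shares over all genes (5.23% higher, 6.13% lower). The mitotic list extends farthest to the right (21 of 34 members) and the gluconeogenesis, amino acid and urea list farthest to the left (10 of 25).

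Genes of gluconeogenesis, amino acid breakdown and the urea cycle had 10 members lower and none higher of 25 tested, against 6.13% of all genes lower. The list median was -0.36, and it was -0.36 within set 1 and -0.31 within set 2. Within set 1, 9 members passed, all of them lower, and 6 passed without Rb knockout replicate 4.

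Besides Gpt and Asl, the called members were Agxt, Hpd, Fah and Hal of glyoxylate, tyrosine and histidine metabolism, Cbs of the transsulfuration pathway, Nags, which makes the activator of the urea cycle, and Pck1 and Pcx of gluconeogenesis. Agxt read 7.99, 7.91 and 8.11 in wild type and 6.88, 7.29 and 7.29 in the knockout in set 1, and 7.37 and 6.97 against 6.04 in set 2. It did not overlap within either set, and it differed by -0.97 (SE 0.18, adjusted p = 0.00191). Hpd differed by -0.67, Hal by -0.98, Fah by -0.88, Cbs by -0.79, Pck1 by -0.72, Pcx by -0.65 and Nags by -0.60. Pck1, which makes phosphoenolpyruvate from oxaloacetate, was the exception in the set 2 knockout array, which at 9.18 lay above the other knockout arrays (8.30 to 8.40).

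Of 34 respiratory chain genes, 11 were lower and none was higher, with a median of -0.16, and 7 were lower without Rb knockout replicate 4. Within set 1, 8 were lower, and Tfam, a mitochondrial transcription factor, was the 1 called higher there (0.45). Called members belonged to complex I (Ndufv1, Ndufb8, Ndufa2, Ndufa1), complex II (Sdhb), complex III (Cyc1, Uqcrc1), complex IV (Cox6a1, Cox4i1) and the ATP synthase (Atp5a1, Atp5g1).

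Sdhb, the iron-sulfur subunit of succinate dehydrogenase, read 9.51, 9.07 and 9.37 in wild type and 8.58, 8.69 and 8.69 in the knockout in set 1, and 9.85 and 9.40 against 8.28 in set 2. All knockout arrays were lower, and the difference was -0.90 (SE 0.15, adjusted p = 0.00137). Cyc1, cytochrome c1, differed by -0.70, and its set 1 and set 2 differences were -0.64 and -0.73. Ndufa2 differed by -1.02 but by only -0.19 within set 1, where it did not pass.

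Mitochondrial ribosome genes, a list added after the data had been seen, had 19 members lower and 2 higher (Mrpl1 and Mrpl32) of 76. Over all genes 6.13% were lower and 5.23% higher. Within set 1, 6 of the 76 were lower, and 4 were lower without Rb knockout replicate 4. Cytosolic ribosomal protein genes, added likewise, had 15 lower and none higher of 60, and 9 were lower with Xist as a covariate. Within set 1, 2 were lower, and 2 were lower without that replicate. Those 2 of 60 within set 1 were near the 2.38% of all genes lower there. The median of the cytosolic list was -0.10 within set 1 and -0.42 within set 2. Rps2 differed by -0.97 and Rplp0 by -0.78, and both passed within set 1 (differences -0.71 and -0.68). Rpl8 and Rps14 did not pass there, and their lowest arrays were Rb knockout replicate 4 at 6.22 and 8.29.

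Among 36 genes of DEN activation and xenobiotic metabolism, 7 were lower, against 6.13% of all genes, and none was higher, with 3 lower without Rb knockout replicate 4. The list median was -0.24, and it was -0.15 within set 1 but 0.02 within set 2, where 18 of the 36 differences were above 0. The 7 genes were Cyp2d10 (-0.99), Cyp2d22 (-0.78) and Cyp2d26 (-0.73) of 1 cytochrome P450 subfamily, whose similar sequences may share probes, the nuclear receptors Nr1i3 (CAR, -0.79) and Nr1i2 (PXR, -0.66), which induce such enzymes, the carboxylesterase Ces2a (-0.70) and the sulfotransferase Sult1a1 (-0.40). Cyp2d10 read 9.51, 9.67 and 9.24 in wild type and 8.79, 8.71 and 8.54 in the knockout in set 1, and 8.55 and 8.48 against 7.17 in set 2. Within each set the knockout arrays were lower, and 5 of the list passed within set 1.

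Of 30 Nrf2 targets and glutathione genes, 8 were lower, against 6.13% of all genes, and none was higher, with a median of -0.41. The median was -0.23 within set 1, where 3 were lower against 2.38% of all genes, and 2 were lower without Rb knockout replicate 4. Apart from Abcc3, a conjugate exporter (-0.61), the 8 were glutathione S-transferases, which couple glutathione to electrophiles and whose related sequences may share probes. Gstp1 read 10.89, 11.40 and 11.17 in wild type and 10.62, 10.25 and 10.61 in the knockout in set 1, and 10.24 and 10.56 against 9.19 in set 2. It differed by -0.87 (SE 0.18, adjusted p = 0.00391). Gstm6 differed by -0.85, Gstt2 by -0.73, Gstm1 by -0.65, Gstt1 by -0.58, and Gstm3 and Gstm4 each by -0.56.

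Hepatocyte secretory and lipid lists also had members lower, against 6.13% of all genes lower and 5.23% higher. The share lower was 16.7% in the acute phase list and 24.1% in the plasma protein and bile acid list. Of 30 acute phase genes, 5 were lower: Hp (haptoglobin, -0.68), Hpx (hemopexin, -0.51), Serpina3n (-0.45), Itih4 (-0.41) and Itih3 (-0.36), of which 4 passed within set 1 and 3 without Rb knockout replicate 4. With Xist as a covariate 2 of the list were lower. Hp was 11.50 to 11.80 in wild type and 10.47 to 11.31 in the knockout, with no overlap. Of 29 plasma protein and bile acid genes, 7 were lower and 1 was higher, with a median of -0.10 (0.05 within set 2), and 1 was lower and none higher without Rb knockout replicate 4.

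In the bile acid pathway, Cyp27a1, which begins the acidic route of synthesis, differed by -0.84 (adjusted p = 0.00262). Slc27a5 of the same pathway differed by -0.96 and Cyp8b1, the sterol 12-hydroxylase, by -0.57. Hnf4a, a central transcription factor of hepatocytes, differed by -0.57 but did not pass within set 1. Slco1b2, an uptake transporter, differed by 0.76. Of 24 lipogenic genes 3 were lower (Dgat2, Fads2 and Agpat2). Within set 1, 2 were lower, and without Rb knockout replicate 4, 1 was. Of 25 fatty acid oxidation genes 3 were lower (Hadh, Cpt2 and Acaa2) and 1 was higher (Pdk4, at 7.81 in Rb knockout replicate 4 and 6.77 to 6.94 in the other 3). Within set 1, 1 of the 25 was lower and none higher, and without that replicate none was called. With Xist as a covariate, 2 lipogenic and 1 fatty acid oxidation gene were lower.

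Counts of the other lists stand against 5.23% of all genes higher and 6.13% lower. Interferon-stimulated genes had 2 higher (Ifit2 and Iigp1) and 1 lower (Bst2) of 30. Apoptosis genes had 2 higher (Xiap and Cflar, both inhibitors of caspases) and 2 lower (Tnfrsf1a and Bak1) of 24. Circadian genes had 1 higher (Clock) and 3 lower (Cry2, Per1 and Tef, 18.8%) of 16. In the growth hormone and IGF axis 3 of 18 were lower (Igfbp2, Igfbp3 and Igfbp4, 16.7%). Neither the circadian nor the growth hormone and IGF list had a member that passed within set 1. With Xist as a covariate each had 1 lower and none higher. No member was called among 14 MHC genes, 20 fetal liver genes or 22 immediate early genes. Cholesterol synthesis had 1 higher (Idi1) and 1 lower (Ebp) of 20, the unfolded protein response 1 lower of 24 (Ddit3) and heat shock genes 1 higher of 14 (Hspa4l).

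Few markers of other liver cells were called, against 5.23% of all genes higher and 6.13% lower. A lack of calls does not show a lack of change. The neutrophil list median was 0.30 within set 1 and -0.26 within set 2. No gene was called among 15 neutrophil, 14 lymphocyte, 13 erythroid, 12 exocrine pancreas, 15 skeletal muscle and 11 adipose or mesothelial markers. Of 22 macrophage markers 1 was lower (Clec4f), of 24 endothelial markers 1 was higher (Mrc1) and 1 lower (Clec4g). Of 25 stellate cell and matrix markers 1 was higher (Lrat) and 2 were lower (Ecm1 and Acta2), and of 15 biliary markers 1 was lower (Krt8). In bulk tissue, fewer cells of a type and less RNA per cell cannot be told apart.

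**Figure D3:**
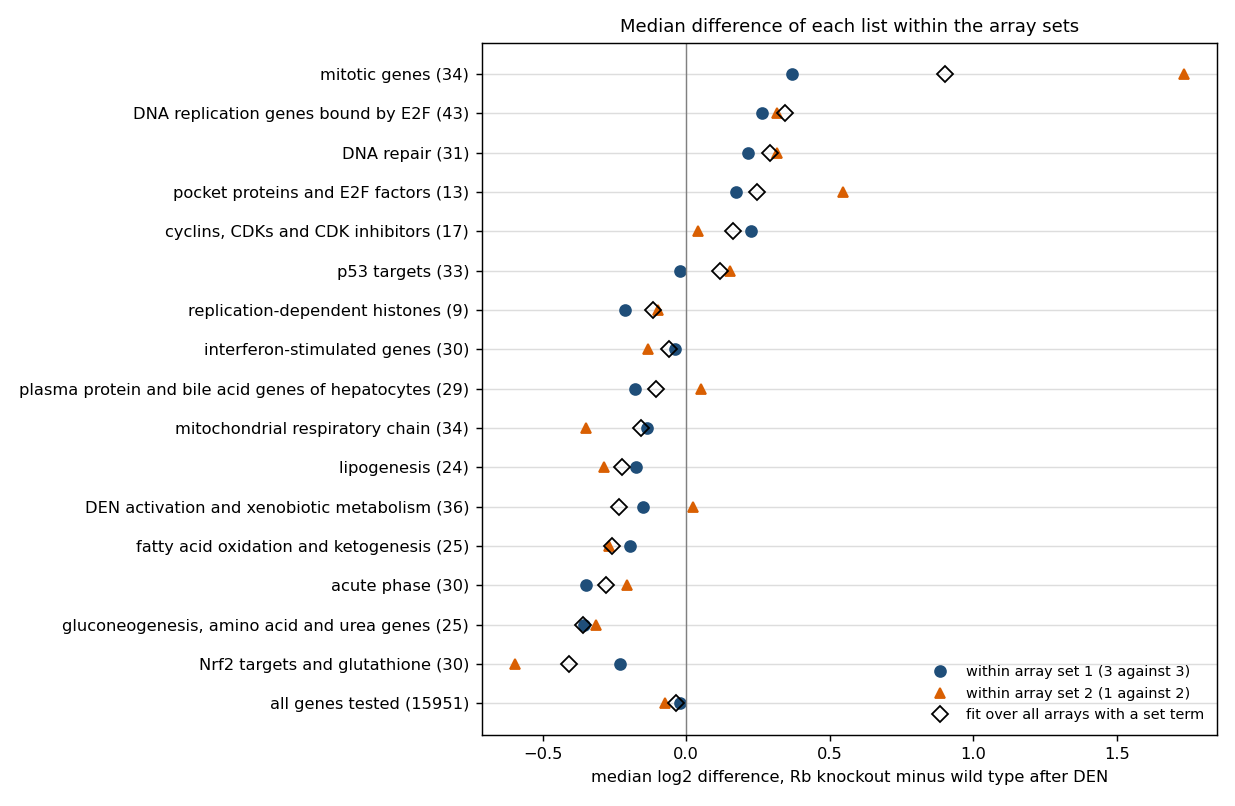
Median log2 difference (Rb knockout minus wild type after DEN) of 16 gene lists and of all genes, within array set 1 (circles), within array set 2 (triangles) and in the fit over all arrays (open diamonds). The mitotic list moves most between the sets, from 0.37 to 1.73, while the gluconeogenesis, amino acid and urea list stays at -0.36 and -0.31.

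The difference between genotypes was itself compared between the sets. Of all genes, 1578 (9.89%) had a set 2 difference that differed from the set 1 difference at an adjusted p of 0.05. They included 414 of the 834 genes called higher and 178 of the 977 called lower. The share was highest in the mitotic list, with 20 of 34, and was 7 of 43 in the replication list and 5 of 25 in the amino acid and urea list. Rmrp and Igfbp4 were among the 4 genes with the lowest p, and their set 2 minus set 1 contrasts were -2.97 and -2.52. Set 2 has 1 knockout array, so its spread was taken from the other groups, and the set cannot be told apart from the state of that liver.

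Rb loss was also present in the double knockout, whose difference from the p53 knockout uses none of the 9 arrays. They do enter the spread that the fit shares among groups, and so the calls, of which there were 689 without set 2. Over all 25 arrays that comparison had 298 genes called (1.87%), 57 higher (0.357%) and 241 lower (1.51%). Of the 977 genes lower in the Rb knockout, 83.5% had a difference below 0 there, against 57.6% of all genes, and 51 were called lower and 0 higher. Of the 834 genes higher in the Rb knockout, 53.6% had a difference above 0 there, against 42.4% of all genes, and 8 were called higher and 6 lower.

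The array sets disagreed on that comparison too. Within set 1 alone, with 2 p53 knockout and 3 double knockout arrays, 777 genes passed (4.87%), 378 of them higher (2.37%) and 399 lower (2.50%). Among them were 65 of the genes higher in the Rb knockout as higher and 13 as lower. Of the genes lower in the Rb knockout, 38 were lower and 11 higher there. Within set 1, 63.9% of these had a difference below 0, and 54.8% of the genes higher in the Rb knockout had a difference above 0.

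For cell cycle genes the sets gave different values where p53 was also absent. The median of the mitotic list was 0.13 in the double knockout against the p53 knockout, with 0 of 34 called, but it was 0.49 within set 1, with 6 called, all of them higher. In set 1 the median with p53 present was 0.37. The mean over the list was 6.21 and 5.98 in the p53 knockout and 6.54, 6.47 and 6.68 in the double knockout in set 1. In set 3 it was 6.51, 6.72 and 6.66 in the p53 knockout and 6.48 and 6.38 in the double knockout. The double knockout was thus above the p53 knockout in set 1 and below it in set 3.

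The replication list had a median of 0.01, with 1 of 43 called, and 0.16 within set 1, with 5 called, all of them higher. The 1 gene called over all arrays was Pola1, which was 5.64 to 6.84 in the p53 knockout and 6.78 to 7.43 in the double knockout. Its difference was 0.77 (adjusted p = 0.00727), and 0.95 within set 1 (adjusted p = 0.00496). Hells was 7.14 to 7.83 in the p53 knockout and 7.28 to 8.12 in the double knockout, with a difference of 0.16 (adjusted p = 0.793). These ranges overlap that of the Rb knockout (7.23 to 7.78).

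Against wild type, the median of the mitotic list was 0.59 in the p53 knockout and 0.73 in the double knockout, beside 0.90 in the Rb knockout, and these 3 comparisons share the wild-type arrays. The p53 knockout had 284 genes called (1.78%) against wild type, with 2 of the 34 mitotic genes higher against 0.708% of all genes. The double knockout had 1887 called (11.8%), with 18 of the 34 higher against 2.69% of all genes.

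Of the 21 mitotic genes called higher in the Rb knockout, 19 were above 0 in the double knockout against the p53 knockout, and of the 14 replication genes 8 were. Of the genes called lower, 9 of 10 in the amino acid and urea list and 8 of 11 in the respiratory chain list were below 0. In the double knockout against the p53 knockout, the amino acid and urea list had a median of -0.22 and the respiratory chain list of -0.09, with no member called in either. Within set 1 the medians were -0.22 and -0.09, with 5 and 0 called, all of them lower. Gpt differed by -0.60 and Asl by -0.72 over all arrays (adjusted p = 0.246 and 0.0925), and Asl passed within set 1 (-0.84, adjusted p = 0.0183). Of the called xenobiotic genes, Nr1i3 (-1.13, adjusted p = 0.00830), Cyp2d10 (-0.56, adjusted p = 0.0389) and Cyp2d26 (-0.52, adjusted p = 0.0201) were lower in both comparisons.

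The dependence of the Rb difference on p53 was tested as the contrast between the 2 differences, and 68 genes passed (0.426%), of which 52 had a contrast below 0 (0.326%). None of the 12 largest rises other than Rsph4a passed, and no member of the mitotic list did. The median contrast of the mitotic list was -0.76 over all arrays but 0.08 within set 1, so a lack of calls does not show independence of p53. In the replication list 2 passed, Mcm4 (-0.81) and Prim1 (-1.31), each with an adjusted p of 0.0470. For Hells the contrast was -1.36 (adjusted p = 0.0606). The 4 genes with the lowest p were Snx7, a sorting nexin (-1.52), B4galnt1, a ganglioside synthase (1.64), Pus3, a tRNA pseudouridine synthase (-1.24), and Ltn1, a ubiquitin ligase of stalled ribosomes (-1.23).

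**Figure D4:**
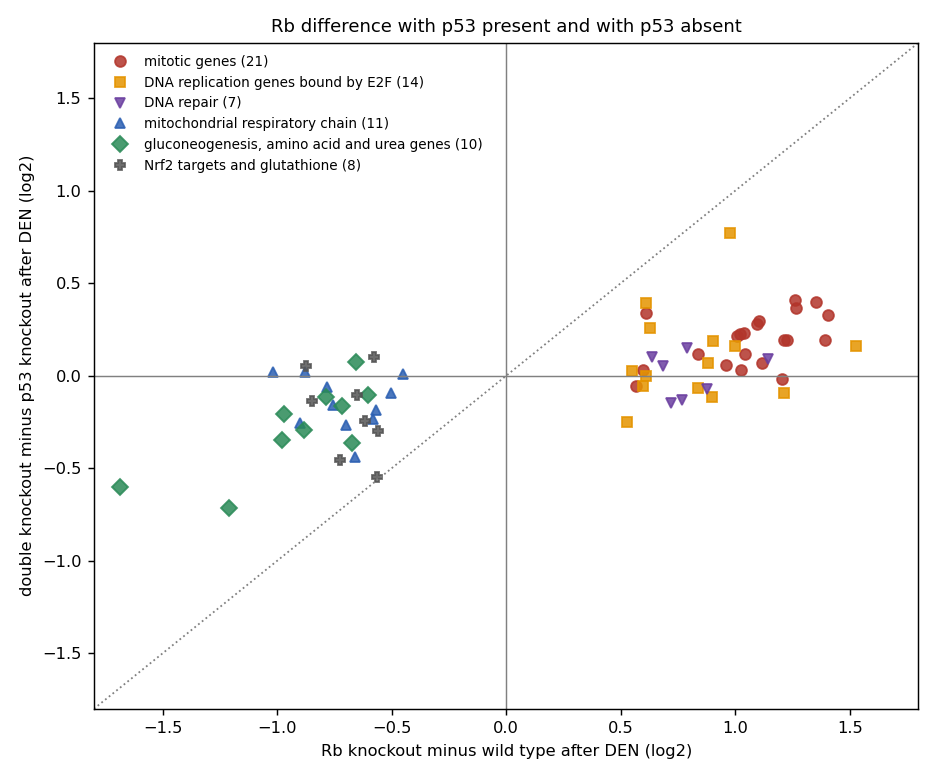
Log2 difference in the double knockout minus the p53 knockout (vertical) against that in the Rb knockout minus wild type (horizontal), for members of 6 lists called in the latter, with the number of genes in brackets and equality dotted. The points were chosen by the horizontal axis. On the vertical axis 19 of 21 mitotic genes and 8 of 14 replication genes lie above 0, with Pola1 at 0.77, against 42.4% of all genes. Of the amino acid and urea list, 9 of 10 genes lie below 0, against 57.6% of all genes.

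Genes linked to the deleted locus were examined because the animals were of mixed background. Among the 50 tested genes on each side of Rb1 on chromosome 14, 6 were higher and 3 lower, which is 9% called, against 13% of the 538 tested genes of the chromosome. The 3 lower genes, Clu, Bin3 and Sorbs3, lay before Rb1 in the order of positions. The 6 higher ones, Zc3h13, Gtf2f2, Lacc1, Akap11, Naa16 and Diaph3, lay after it. Clu, the secreted chaperone clusterin, differed by -0.69 (adjusted p = 0.00133) and Naa16 by 0.64 (0.00348), and both passed within set 1.

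The genes called in the 2 directions also differed in size. Genes called higher spanned a median of 43.1 kb from first to last exon and those called lower 10.4 kb, against 19.8 kb for all tested genes. Within set 1 alone the medians were 35.9 and 11.5 kb. Gene span is given as a description, and its part in the calls was not tested.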

How the data were processed

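RNA from frozen liver was amplified and hybridized to Affymetrix arrays, per the labels' protocols. The deposited values are log2 signals that the authors made with RMA in Affymetrix Expression Console 1.1, per the submitters' processing notes; the genome build is not given in the sources used here, nor is whether all arrays were normalized together. A difference of 1 on this scale is a doubling of signal, and the number of arrays limits the precision.

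Of 35555 probe sets, 21789 carried 1 gene symbol in GEO's platform annotation, 1620 carried several and 12146 were unlisted; the latter kinds were left out. The probe set with the highest mean was kept for each of 19938 genes, and 3987 genes with a mean under 3.33 (20th percentile) were dropped as dim. The model of limma 3.58.1 in R 4.3.3 (lmFit, eBayes) held group means and a fixed array set term and used all 25 arrays. Tests were two-sided; p-values were adjusted by Benjamini-Hochberg over 15951 genes, with calls at 0.05. Fits within a set used that set alone. The calculation was tested on simulated data.

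Members, lists and tests were chosen with earlier results of these data known. Named genes are Rb1, the 12 largest rises and falls among called genes of the same sign in both sets, up to 4 members per list by p, other called members of the described lists, and the 4 genes of lowest p in the set and p53 contrasts. Lists are described by counts and medians, without a set test. For the named genes, an exact two-sided permutation within sets had 60 arrangements and a smallest p of 0.01667.

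The alternatives left out the set term, made the set a random block (statmod 1.5.0), or used set 1 alone, set 2 alone, all arrays but set 2 or set 3, only the groups compared, no filter or 1 at the 40th percentile, the mean of a gene's probe sets, centred arrays, a repeated quantile normalization, weights per array, a trended and robust eBayes, Xist as a covariate, and each array left out in turn. Leaving out the 2 high-Xist knockout arrays was added after seeing the data.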

Additional observations from a re-analysis of the deposited data

Results flagged for a closer look

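Single arrays far from the others of their group were found in 36 of 240 tests of a named gene in a DEN-treated genotype group of this comparison, whereas chance gives about 1 in 20. Rb knockout replicate 4, the only knockout array of set 2, accounted for 28 of them. It was lower than the other 3 knockout arrays in 22: Ftl1 (6.70), Vamp8 (7.42), Slc38a3 (7.56), Cdkn2c (5.02), H4c4 (6.90), Dcxr (6.13), Cyp2d10 (7.17), Gstt2 (4.75), Hp (10.47), Ebp (5.38), Fads2 (8.07), Atp5a1 (9.40), Uqcrc1 (6.81), Slc27a5 (6.93), Tnfrsf1a (5.50), Rpl8 (6.22), Rps14 (8.29), Rplp0 (8.68), Mrpl23 (5.56), Mrps18a (5.79), Snord104 (6.02) and Ndufa2 (6.36). It was higher in 6: Kif20b (7.35), Hpx (11.02), Pdk4 (7.81), Pck1 (9.18), Mir320 (7.34) and B4galnt1 (5.36). These tests pool the array sets, so a set 2 array can stand apart by its set, and its part was not tested.

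The other 8 were spread over 6 arrays. In wild type, Rb1 was low in replicate 5 (5.04 against 5.82 to 6.02) and Cyp2d26 low in replicate 4 (10.92), Fads2 was low in replicate 1 (8.97), and Dgat2 in replicate 5 (9.41), Cyp8b1 in replicate 3 (7.30) and Mrpl52 in replicate 4 (8.02) were high. In the Rb knockout, Polk was low in replicate 2 (7.17) and Snx7 high in replicate 3 (8.05).

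The contrast of the Rb difference with p53 absent minus that with p53 present passed for 9 named genes (limma, Benjamini-Hochberg). Over all genes 0.426% passed. Snx7, B4galnt1, Pus3 and Ltn1 were named for their low p in this same contrast. The other genes were named for their Rb difference with p53 present, which enters the contrast with a minus sign. The count and the signs thus follow in part from the choice of genes. The contrast was below 0 for Rsph4a (-2.32), Snx7 (-1.52), Pus3 (-1.24), Pdk4 (-1.24), Ltn1 (-1.23), Atr (-0.87) and Mcm4 (-0.81). It was above 0 for B4galnt1 (1.64) and Bst2 (1.04). For Rsph4a, Snx7, Pus3, Pdk4, Ltn1 and Atr the Rb difference was above 0 with p53 and below 0 without it. Mcm4 differed by 0.88 with p53 and by 0.07 without it.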

How the results depend on the processing

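Of the 117 named genes called in the Rb comparison, none changed sign under any alternative. That follows in part from the choice, since the largest rises and falls had to share their sign in both sets. Of all 1811 called genes, 1807 had the same sign within both sets. With limma, 58 stayed called within set 1 alone, 46 without Rb knockout replicate 4 and 46 without the set term. The 1811 calls (834 higher, 977 lower) became 390 (245 and 145) with no set term, 532 (153 and 379) in set 1 alone, 193 (49 and 144) without set 2, 795 (313 and 482) with only the groups compared, and 1173 with 553 lower without the 2 high-Xist arrays. Centring left 638 lower and array weights 454 higher. Leaving out single arrays gave 279 to 1970 calls, 71 to 958 higher and 208 to 1043 lower. The lowest counts came without Rb knockout replicate 4. Rb1, never called, changed sign to -0.25 in set 1 alone and without set 2, -0.13 with array weights, -0.11 without wild-type replicate 5 and -0.13 without Rb knockout replicate 4, within a range of -0.13 to 0.174 without single arrays.

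The 298 calls of the double knockout against the p53 knockout became 27 with no set term, 135 with the set as a random block, 777 in set 1, 689 without set 2, 147 without set 3 and 157 after another quantile normalization, and 142 to 383 without single arrays. The share of genes higher in the Rb knockout with the same sign there (53.6%) was 49.4% with no set term and 60.2% with centred arrays. That of the lower genes (83.5%) was 76.6% with no set term, 63.9% in set 1 and without set 3, and 79.1% with centred arrays. The shares of all genes were not computed under these alternatives. The 68 calls of the p53 contrast became 1 with no set term, 210 in set 1, 5 without set 2, 139 without set 3, 123 at the 40th percentile, 109 centred, 31 after quantile normalization and 16 with array weights, and 6 to 303 without single arrays. The causes were not tested. Set 2 alone has 1 knockout array and gave values only. No paired analysis was possible because the labels give no replicate numbers. The number of arrays limits all of these values.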
